A study of Mus musculus with 8 samples.

Results

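The gene set described here holds 31 mouse genes of nucleotide excision repair and mismatch repair, together with the ligases and the scaffold that close the repaired strand. They were listed by symbol and matched to Entrez GeneIDs among the 23403 genes of the count table. All 31 were found, and all 31 were among the 13619 genes that passed the filter on low counts. The list holds 22 genes of nucleotide excision repair, 6 of mismatch repair and 3 of ligation. No measured value entered the rule for the list, but it was chosen with earlier results of these data known.

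Nucleotide excision repair removes bulky lesions that distort the DNA helix. A lesion is found by the XPC complex anywhere in the genome, or by a stalled RNA polymerase in transcribed genes, and TFIIH then opens the helix, XPA checks the lesion, and the nucleases XPG and XPF-ERCC1 cut out a short strand. Mismatch repair finds mispaired bases with MutS homologs, nicks the new strand with MutL homologs and removes it with EXO1. Chromate that enters cells is reduced to Cr(III), which binds DNA, and the resulting chromium-DNA adducts are known substrates of both pathways.

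The cells were Hepa-1 cells, a mouse hepatoma line. For RNA-seq there were 2 libraries from cells given Cr(VI) at 25 µM over 90 minutes, and 2 control libraries with no regimen named in their labels. FAIRE-seq, which recovers DNA left free of crosslinked protein, had 1 library for each of 4 conditions: the same acute 25 µM exposure, its control, growth at 0.5 µM Cr(VI) through 20 passages, and a passaged control. No source says whether RNA-seq libraries of a group came from separate cultures, so p-values measure only the spread between these samples, which may be technical.

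The treated RNA-seq libraries differed from each other more than the control libraries did. Library totals ran from 32319676 to 37696116 counts. The number of genes more than 2-fold apart was 1404 within the treated pair and 83 within the control pair. Hepatocyte markers summed to 4171 and 4307 normalized CPM (counts scaled to library size) in control cells and to 7375 and 8677 in treated cells, with 2 of 8 tested markers called higher and Apoa1 and Hnf4a under 1 CPM. The sum of 5 fibroblast or stellate markers was 689 and 700.0 CPM in control and 1276 and 1407 in treated cells, with Dcn called higher among 4 tested and Lrat at 0. Leukocyte markers summed to 69.0 to 76.9 CPM over the 4 libraries, with Ptprc under 1 CPM in each. Endothelial markers summed to 0.633 to 2.35 CPM, with Cdh5 at 0 and Pecam1 called higher. Their part in the values of the repair genes was not tested.

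The median repair gene was close to its control mRNA level, and larger differences were scattered over the roles. The median log2 fold change of the 31 genes was -0.076, beside -0.0047 over all genes tested. There were 12 genes above 0 and 19 below it, and the range ran from -1.01 for Pms1, a MutL homolog, to 0.73 for Xpc, the lesion sensor of global genome repair. A change under 0.5 on the log2 scale was measured in 23 of the 31 genes and a change under 1 in 30. In such bulk samples fewer cells of a type and less RNA per cell cannot be told apart.

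No repair gene passed the threshold of 0.05 on the adjusted p-value of edgeR's quasi-likelihood test, which called 4.63% of all genes tested. Adjusted p-values of the 31 genes ran from 0.0716 to 0.930 in edgeR. An unadjusted p under 0.05 was found for 8 of them, against 30.7% of all genes. DESeq2 called 3 repair genes, against 15.2% of all genes: Xpc and Xrcc1 were higher and Gtf2h5 was lower. The treated and control values did not overlap for 15 of the 31 genes (48.4%), 8 of them higher and 7 lower, beside 66.3% of all genes. Under none of these rules did the share of repair genes exceed the share over all genes.

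**Figure D1:**
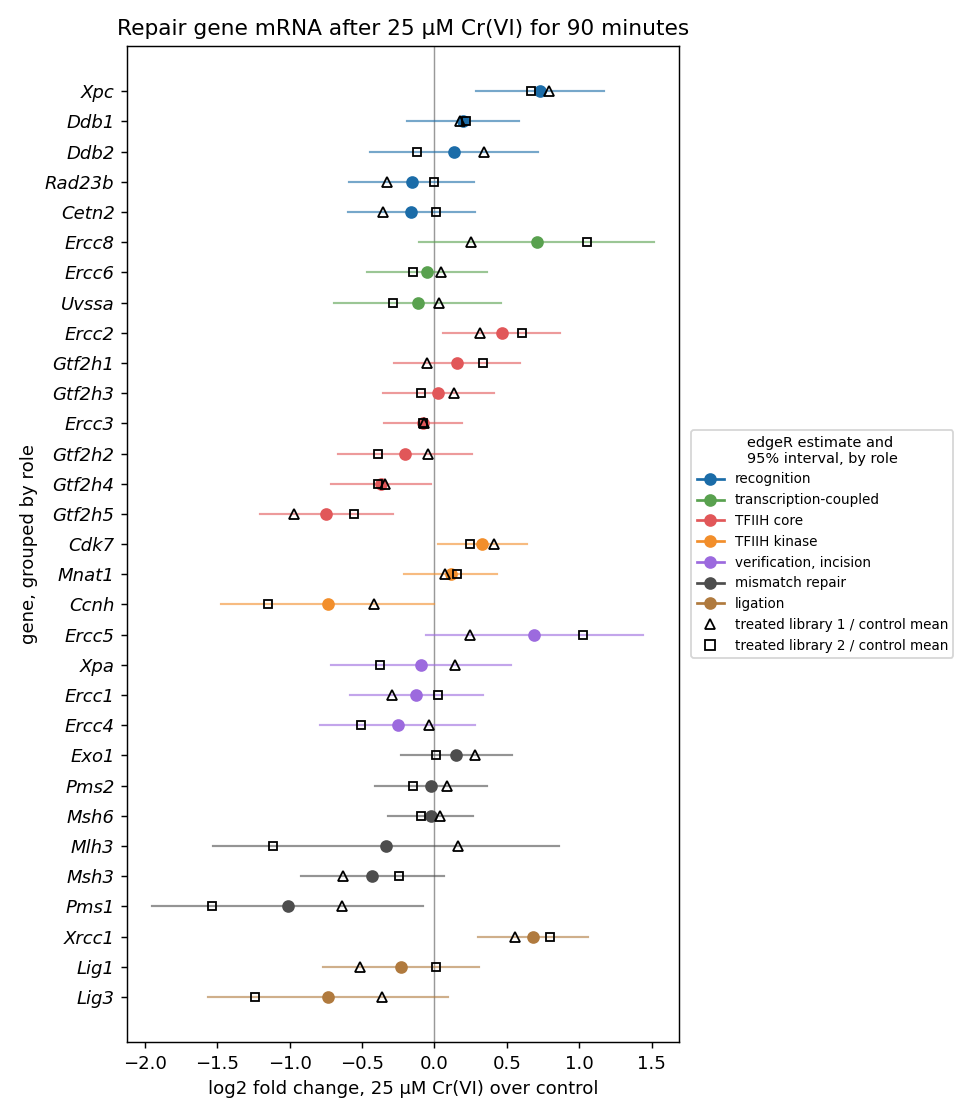
Log2 fold change of 25 µM Cr(VI) over control for each of the 31 repair genes, grouped by role. Filled circles are edgeR estimates with 95% intervals, and triangles and squares are treated libraries 1 and 2 over the control mean; most estimates lie within 0.5 of 0, and the intervals of Xpc, Xrcc1 and Gtf2h5 lie farthest from it.

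The treated libraries often differed from each other by more than the fitted change. The higher treated library was a median of 1.25-fold above the lower over the 31 genes, while the control libraries were a median of 1.04-fold apart. The treated pair stood more than 1.5-fold apart for 6 repair genes (Ercc8, Ercc5, Ccnh, Lig3, Pms1 and Mlh3), which is 19.4% of the set beside 31.2% of all genes tested, and the control pair for 0. In each of these 6 genes treated library 2 lay farther from the controls. For 12 of the 31 genes (38.7%) the treated libraries stood on opposite sides of the control mean, beside 28.2% of all genes tested.

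**Figure D2:**
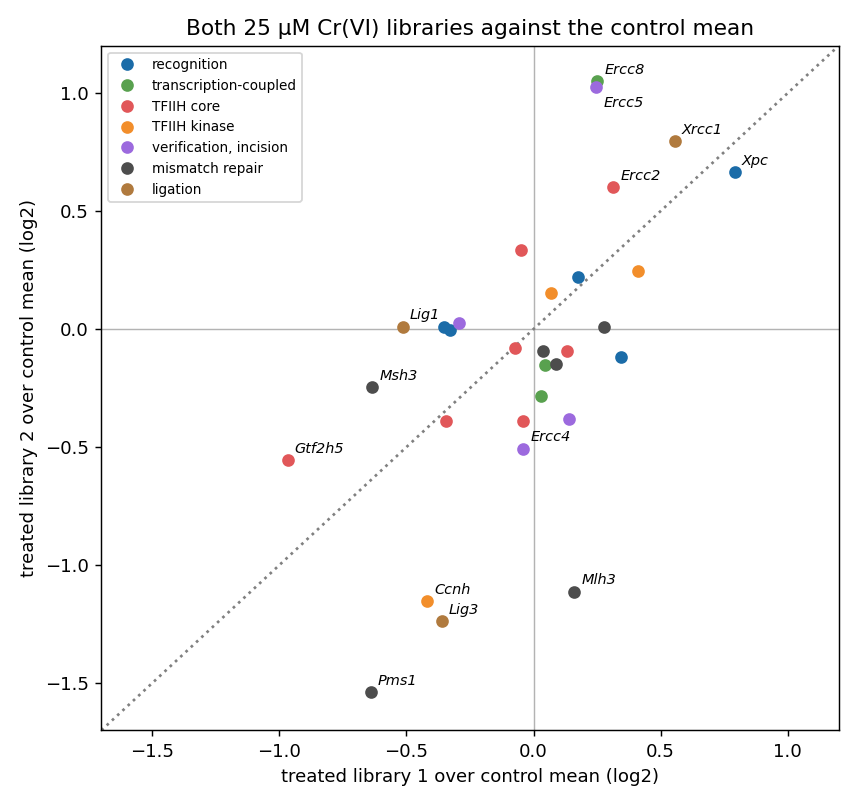
Log2 level over the control mean in treated library 2 (vertical) against treated library 1 (horizontal), 1 point per repair gene, coloured by role; the dotted line marks equal change. Xpc and Xrcc1 lie near the line and Gtf2h5 is low in both libraries, while Ercc8, Ercc5, Ccnh, Lig3, Pms1 and Mlh3 lie away from it, with library 2 farther from the controls.

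Chromatin opened by Cr(VI), as listed in the deposited FAIRE peaks, was not found at the start of any repair gene. Both lists as used here are shorter than the totals of opened regions in the study's text. The study's own counts by genomic annotation add up to the lengths used here. Peaks outside the lists were not analysed here. Of the 2945 peaks open after 25 µM Cr(VI), none had its centre within 1000 bp of an annotated start of a repair gene, and such a peak was listed for 1.53% of all genes tested with a mapped position. Of the 860 peaks open after 0.5 µM Cr(VI) none did so either, beside 1.38% of all such genes. With 1 FAIRE library per condition there was no test.

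Inside gene bodies 3 repair genes held a 25 µM peak, beside 7.66% of all genes, and 1 held a 0.5 µM peak, beside 2.62%. The 25 µM peaks lay in introns of Rad23b, a partner that stabilises XPC, of Xrcc1, the scaffold that binds DNA ligase III, and of Ercc4, which encodes the XPF nuclease. The 0.5 µM peak lay in Msh3, a MutS homolog, and covered 121 bp of an exon that runs from 92274730 to 92274917 on chromosome 13. These 4 sequences are shown because they are the regions inside repair genes that were listed as opened. They are given 5′ to 3′ on the strand of the gene from the mm10 genome, and capitals mark matches to GGGCGG (the SP1 sequence) or CCAAT (the NFY sequence) on either strand.
Rad23b, chr4:55383798-55383909: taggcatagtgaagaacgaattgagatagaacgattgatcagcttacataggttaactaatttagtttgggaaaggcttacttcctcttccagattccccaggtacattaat
Xrcc1, chr7:24563904-24563996: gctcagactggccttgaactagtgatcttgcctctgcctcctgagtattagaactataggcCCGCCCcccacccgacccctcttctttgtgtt
Ercc4, chr16:13117385-13117487: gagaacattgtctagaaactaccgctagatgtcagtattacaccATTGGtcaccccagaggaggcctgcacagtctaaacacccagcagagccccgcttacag
Msh3, central 300 bp, chr13:92274538-92274837: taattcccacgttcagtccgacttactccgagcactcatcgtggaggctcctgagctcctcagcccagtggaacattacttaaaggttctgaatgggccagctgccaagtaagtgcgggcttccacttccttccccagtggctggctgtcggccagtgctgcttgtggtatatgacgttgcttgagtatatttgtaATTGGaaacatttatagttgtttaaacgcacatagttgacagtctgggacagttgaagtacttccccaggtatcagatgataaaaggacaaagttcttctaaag

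The Rad23b peak was 112 bp wide with a score of 50.6 and lay 33811 bp from the gene's start. The Xrcc1 peak was 93 bp wide with a score of 60.7, lay 17251 bp from the gene's start and 12463 bp from the nearest annotated transcript start, and 54.8% of its bases were marked as repeats. The Ercc4 peak was 103 bp wide with a score of 58.2, 7700 bp from the nearest transcript start. The Msh3 peak was 326 bp wide with a score of 62.3. Each score is 10 times the negative log10 of the peak caller's p-value, so it ranks peaks within a list and is no measure of how far the region opened.

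**Figure D3:**
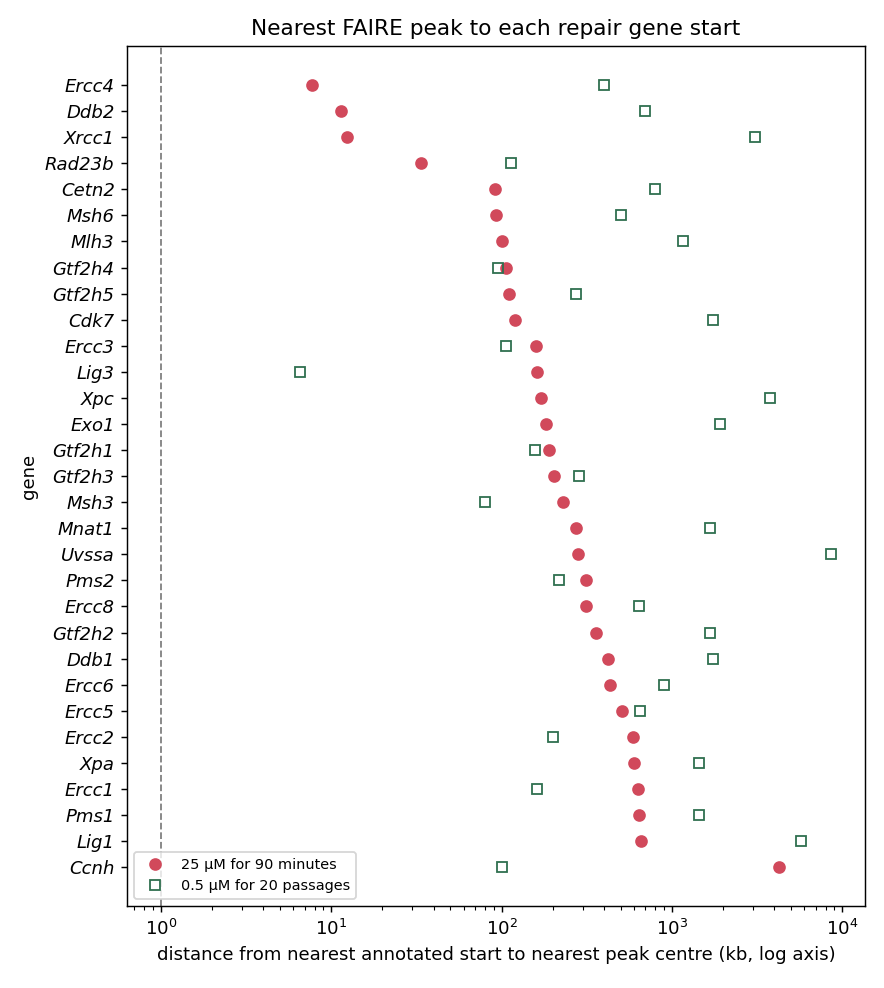
Distance in kb (log axis) from the nearest annotated start of each repair gene to the centre of the nearest FAIRE peak, for peaks open after acute 25 µM (circles) and after long-term 0.5 µM exposure (squares). All points lie to the right of the dashed line at 1 kb; the nearest are Lig3 at 6597 bp (0.5 µM) and Ercc4 at 7700 bp (25 µM).

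Most repair genes lay far from any listed peak. The distance to the nearest 25 µM peak had a median of 202662 bp over the 31 genes, from 7700 bp for Ercc4 to 4253941 bp for Ccnh, and a median of 172856 bp over all tested genes. For the 0.5 µM list the median was 652067 bp, from 6597 bp for Lig3 to 8588182 bp for Uvssa, and 764723 bp over all tested genes. Neighbouring genes share a nearest peak, as Ercc1 and Ercc2 do at 25 µM, so these distances are not independent.

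Among the 5 genes of lesion recognition, Xpc had the largest log2 fold change. The edgeR test called none of the 5, beside 4.63% of all genes tested. It gave an unadjusted p under 0.05 for 1, beside 30.7%, and DESeq2 called Xpc, beside 15.2%. Xpc (GeneID 22591) was measured at 7.22 and 6.98 CPM in control cells and at 12.3 and 11.3 CPM in treated cells. Both treated libraries lay above both controls, and the gap between the groups was several times the gap within either. The log2 fold change of Xpc was 0.73 (SE 0.165, 95% interval 0.29 to 1.17, n = 2 per group, edgeR adjusted p = 0.0810). DESeq2 gave an adjusted p of 0.04996 for Xpc, at the threshold, and over all alternatives its adjusted p ran from 7.37e-14 to 0.737, the low end coming from fits with a lone treated library.

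Cetn2, which encodes the centrin of the XPC complex, had the lowest fold change of the recognition genes. Cetn2 was at 39.6 and 40.6 CPM in control and at 31.4 and 40.3 CPM in treated cells. Treated library 1 was below the controls and library 2 was between them, so the groups overlapped (log2 fold change -0.16, SE 0.164, edgeR adjusted p = 0.540). Rad23b followed the same pattern, with 360.3 and 357.5 CPM in control and 285.6 and 358.4 CPM in treated cells. Ddb1, the adaptor of the CUL4 ubiquitin ligase, was at 757 and 759 CPM in control and at 856 and 882 CPM in treated cells. Ddb2, whose product binds UV lesions, had a log2 fold change of 0.13 (SE 0.217) and overlapping groups.

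Of the 3 genes of transcription-coupled repair, Ercc8 differed most, through treated library 2. Ercc8, which encodes the CSA subunit of a ubiquitin ligase, was at 12.5 and 12.1 CPM in control and at 14.7 and 25.5 CPM in treated cells. Both treated values were above the controls, but they were 1.74-fold apart. The log2 fold change was 0.70 (SE 0.303, 95% interval -0.11 to 1.51, edgeR adjusted p = 0.201). Uvssa, whose product stabilises the CSB protein, was at 6.47 and 5.63 CPM in control and at 6.18 and 4.97 CPM in treated cells, and the groups overlapped (log2 fold change -0.12, SE 0.216, edgeR adjusted p = 0.743). Ercc6, the CSB translocase itself, had a log2 fold change of -0.050 and overlapping groups.

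**Figure D4:**
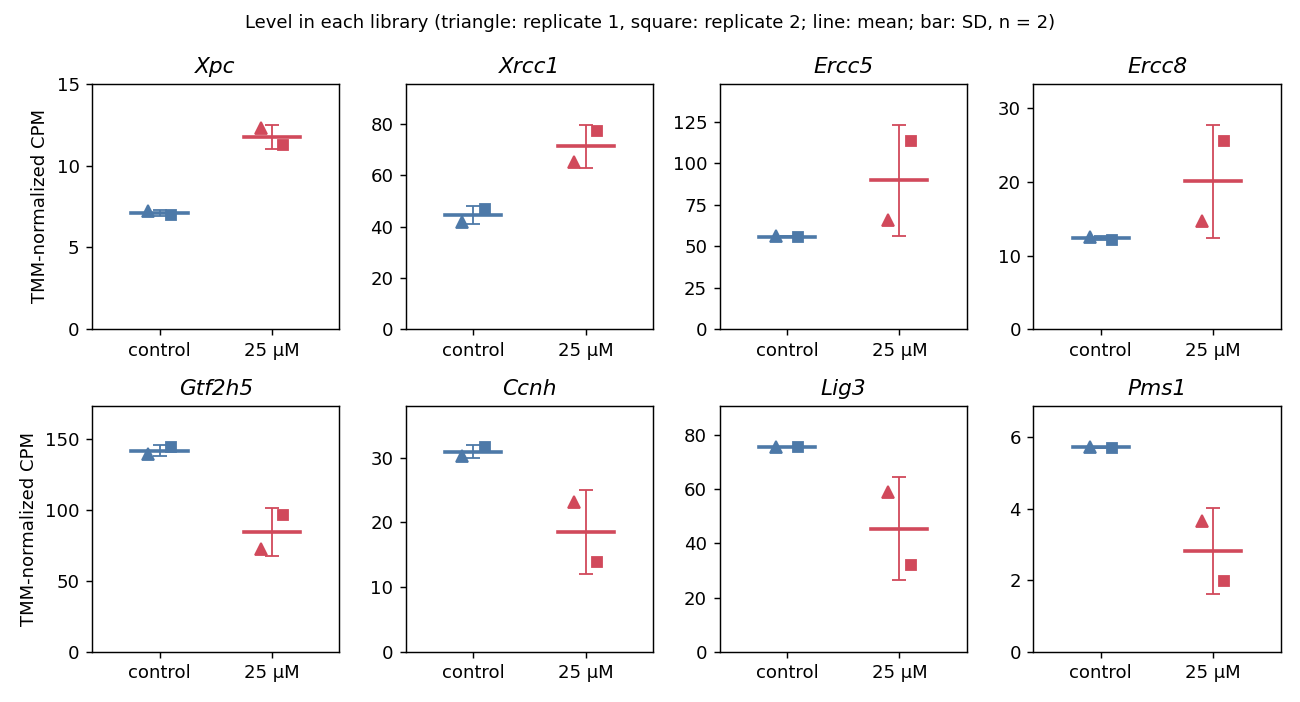
Normalized CPM of 8 repair genes in each control and treated library (triangle for replicate 1, square for replicate 2), with the mean as a line and the SD as a bar (n = 2). Xpc and Xrcc1 are higher and Gtf2h5 is lower in both treated libraries, while Ercc5, Ercc8, Ccnh, Lig3 and Pms1 depend more on treated library 2.

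The 7 core subunits of TFIIH had log2 fold changes on either side of 0. The lowest was that of Gtf2h5, which encodes the small p8 subunit known to stabilise the complex, and the highest that of Ercc2, the XPD helicase. Of these 7, edgeR called 0, beside 4.63% of all genes tested, and DESeq2 called Gtf2h5, beside 15.2%. An unadjusted edgeR p under 0.05 was found for 3 of the 7, beside 30.7% of all genes. Gtf2h5 (GeneID 66467) was at 139 and 144.5 CPM in control and at 72.6 and 96.6 CPM in treated cells, and the groups did not overlap. Its log2 fold change was -0.75 (SE 0.172, 95% interval -1.21 to -0.29, edgeR adjusted p = 0.0834). In DESeq2 the log2 fold change of Gtf2h5 was -0.73 (SE 0.236) with an adjusted p of 0.0199, which called it lower. Leaving out each library in turn gave edgeR log2 fold changes of Gtf2h5 from -0.97 to -0.54.

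Ercc2 was at 35.2 and 38.1 CPM in control and at 45.5 and 55.6 CPM in treated cells. The groups did not overlap, and the log2 fold change was 0.46 (SE 0.150, 95% interval 0.062 to 0.87, edgeR adjusted p = 0.134). Gtf2h4 was at 24.2 and 25.1 CPM in control and at 19.4 and 18.8 CPM in treated cells, without overlap (log2 fold change -0.37, SE 0.129, edgeR adjusted p = 0.150). Ercc3, the XPB translocase of the complex, was at 70.3 and 72.2 CPM in control and at 67.6 and 67.5 CPM in treated cells, so the treated pair nearly coincided. Gtf2h1, Gtf2h2 and Gtf2h3 had log2 fold changes from -0.20 to 0.15 and overlapping groups. The median over the 7 subunits was -0.076.

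The 5′ region of Gtf2h5 is shown because this gene had the lowest DESeq2 adjusted p among the repair genes with a lower level. The gene lies on the plus strand at chr17:6079828-6085488, and the window printed runs from 250 bp before to 50 bp after its start. It has a GC content of 68.7% and 32 CpG dinucleotides. Capitals mark its 2 matches to GGGCGG, both on the opposite strand. Gtf2h5 has a further annotated start downstream, and which start these cells used was not tested.
Gtf2h5, chr17:6079578-6079877: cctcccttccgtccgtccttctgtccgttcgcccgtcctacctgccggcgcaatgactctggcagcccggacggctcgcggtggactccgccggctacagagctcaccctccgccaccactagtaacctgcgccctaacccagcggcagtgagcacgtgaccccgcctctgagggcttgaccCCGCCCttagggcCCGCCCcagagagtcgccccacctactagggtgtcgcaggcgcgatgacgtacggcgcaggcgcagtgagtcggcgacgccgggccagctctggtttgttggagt

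The 3 subunits of the TFIIH kinase module, which phosphorylates RNA polymerase II and cell cycle kinases, had log2 fold changes from -0.74 to 0.33. Neither edgeR nor DESeq2 called any of them, beside 4.63% and 15.2% of all genes tested. Of the 3, 2 had an unadjusted edgeR p under 0.05, beside 30.7% of all genes. Ccnh, the cyclin of the module, was at 30.2 and 31.7 CPM in control and at 23.1 and 13.9 CPM in treated cells. Both treated values were lower but 1.66-fold apart (log2 fold change -0.74, SE 0.275, 95% interval -1.47 to -0.0031, edgeR adjusted p = 0.162). Cdk7, its kinase, was at 71.8 and 69.3 CPM in control and at 93.8 and 83.6 CPM in treated cells, without overlap (log2 fold change 0.33, SE 0.115, edgeR adjusted p = 0.147). Mnat1, the assembly factor, was at 28.8 and 29.2 CPM in control and at 30.4 and 32.2 CPM in treated cells, also without overlap, with a log2 fold change of 0.11 (SE 0.119) that was -0.0037 without normalization.

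Among the 4 genes of lesion verification and incision, Ercc5 stood above the rest. Ercc5, the XPG nuclease that cuts 3′ of the lesion, was at 56.0 and 55.4 CPM in control and at 66.1 and 114 CPM in treated cells. Both treated values were above the controls, and library 2 was 1.72-fold above library 1. The log2 fold change was 0.69 (SE 0.280, 95% interval -0.061 to 1.44, edgeR adjusted p = 0.186). Ercc4, the XPF nuclease that cuts on the other side, was at 28.7 and 26.8 CPM in control and at 27.0 and 19.5 CPM in treated cells, and the groups overlapped (log2 fold change -0.25, SE 0.201, edgeR adjusted p = 0.437). Its partner Ercc1 and the lesion-checking factor Xpa had log2 fold changes of -0.12 and -0.095 with overlapping groups.

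Mismatch repair genes had a median log2 fold change of -0.18, with 5 of the 6 below 0, beside 50.4% of all genes tested, and none of the 6 was called by edgeR or DESeq2. This direction rested on treated library 2: the median of the 6 genes over the control mean was 0.063 in treated library 1 and -0.20 in treated library 2, and without library 2 the fold changes of Mlh3, Msh6 and Pms2 were above 0. Of the 6 genes, 1 (Pms1) had an unadjusted edgeR p under 0.05, beside 30.7% of all genes tested. The shares called over all genes were 4.63% in edgeR and 15.2% in DESeq2. Msh3, whose product finds insertion and deletion loops, was at 22.1 and 22.6 CPM in control and at 14.4 and 18.8 CPM in treated cells. The groups did not overlap (log2 fold change -0.43, SE 0.185, 95% interval -0.92 to 0.065, edgeR adjusted p = 0.202). Msh6, which serves base mismatches, was at 90.8 and 87.5 CPM in control and at 91.4 and 83.6 CPM in treated cells, with a log2 fold change of -0.027 (SE 0.109, 95% interval -0.32 to 0.27, edgeR adjusted p = 0.886).

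The MutL homologs held the lowest fold change of the set. Pms1 was at 5.72 and 5.70 CPM in control and at 3.67 and 1.97 CPM in treated cells, from 199 and 223 reads in control and 124 and 57 in treated cells. Both treated values were lower but 1.86-fold apart (log2 fold change -1.01, SE 0.349, 95% interval -1.95 to -0.081, edgeR adjusted p = 0.145). Pms2, the endonuclease subunit that nicks the new strand, was at 26.5 and 28.0 CPM in control and at 29.0 and 24.6 CPM in treated cells, with overlapping groups (log2 fold change -0.024, SE 0.146, edgeR adjusted p = 0.930). Mlh3, singled out after its values were seen, was at 9.23 and 9.87 CPM in control and at 10.7 and 4.42 CPM in treated cells, so its treated libraries lay on opposite sides of the controls and 2.41-fold apart. Exo1, the exonuclease of mismatch excision, was at 41.5 and 43.8 CPM in control and at 51.8 and 42.9 CPM in treated cells (log2 fold change 0.15, SE 0.143, edgeR adjusted p = 0.512).

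Of the 3 ligation genes edgeR called 0, beside 4.63% of all genes tested, and DESeq2 called Xrcc1, beside 15.2%. The unadjusted edgeR p was under 0.05 for 1 of them, beside 30.7% of all genes. The levels of Xrcc1 were above both controls, and those of its partner Lig3 below them, in each treated library. Xrcc1 (GeneID 22594), the scaffold of nick sealing and base excision repair, was at 41.9 and 47.0 CPM in control and at 65.4 and 77.3 CPM in treated cells. The groups did not overlap. The log2 fold change of Xrcc1 was 0.68 (SE 0.143, 95% interval 0.30 to 1.06), and its edgeR adjusted p of 0.0716 was the lowest of the 31 genes. In DESeq2 the log2 fold change was 0.70 (SE 0.226) with an adjusted p of 0.0188, which called Xrcc1 higher. Leaving out each library in turn gave edgeR log2 fold changes of Xrcc1 from 0.55 to 0.80.

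Lig3, which encodes DNA ligase III, was at 75.7 and 75.6 CPM in control and at 58.9 and 32.1 CPM in treated cells. Both treated values were lower but 1.84-fold apart (log2 fold change -0.73, SE 0.310, 95% interval -1.56 to 0.095, edgeR adjusted p = 0.196). Lig1, the ligase of replication and of long repair patches, had overlapping groups, with 109 and 108 CPM in control and 75.7 and 109 CPM in treated cells.

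The 5′ region of Xrcc1 is shown as that of the repair gene with the lowest adjusted p. The gene lies on the plus strand at chr7:24546699-24573438, and its window has a GC content of 49.3% with 7 CpG dinucleotides. Capitals mark its match to CCAAT on the opposite strand. Xrcc1 has a further annotated transcript start inside the gene, and which start these cells used was not tested.
Xrcc1, chr7:24546449-24546748: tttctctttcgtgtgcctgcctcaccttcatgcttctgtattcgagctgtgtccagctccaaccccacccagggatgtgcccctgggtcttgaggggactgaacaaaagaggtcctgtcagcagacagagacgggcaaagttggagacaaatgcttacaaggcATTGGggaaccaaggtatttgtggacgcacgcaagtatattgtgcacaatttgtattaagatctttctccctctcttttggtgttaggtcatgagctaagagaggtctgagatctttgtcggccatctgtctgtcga

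Control levels per kb of exonic length spanned from 178 CPM per kb for Ddb1 to 0.649 for Uvssa. Ddb1 was followed by Rad23b at 94.2, Gtf2h5 at 76.6, Gtf2h1 at 36.0 and Cetn2 at 33.8 CPM per kb. The sensor Xpc was far lower than its partners, at 1.95 CPM per kb. The lowest were Mlh3 at 1.66, Ercc8 at 1.65, Pms1 at 1.39, Ercc6 at 1.38 and Uvssa. Exonic length here was the union of all annotated exons, from 1186 bp for Cetn2 to 11204 bp for Ercc6. The order therefore depends on the annotation, and which exons these cells used was not tested. Neighbours in this order whose control values overlapped were Ccnh and Gtf2h4, Mnat1 and Xrcc1, Xrcc1 and Ercc2, Ercc2 and Xpa, Xpa and Gtf2h3, Mlh3 and Ercc8, and Pms1 and Ercc6. The other neighbouring pairs did not overlap over 2 control libraries.

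**Figure D5:**
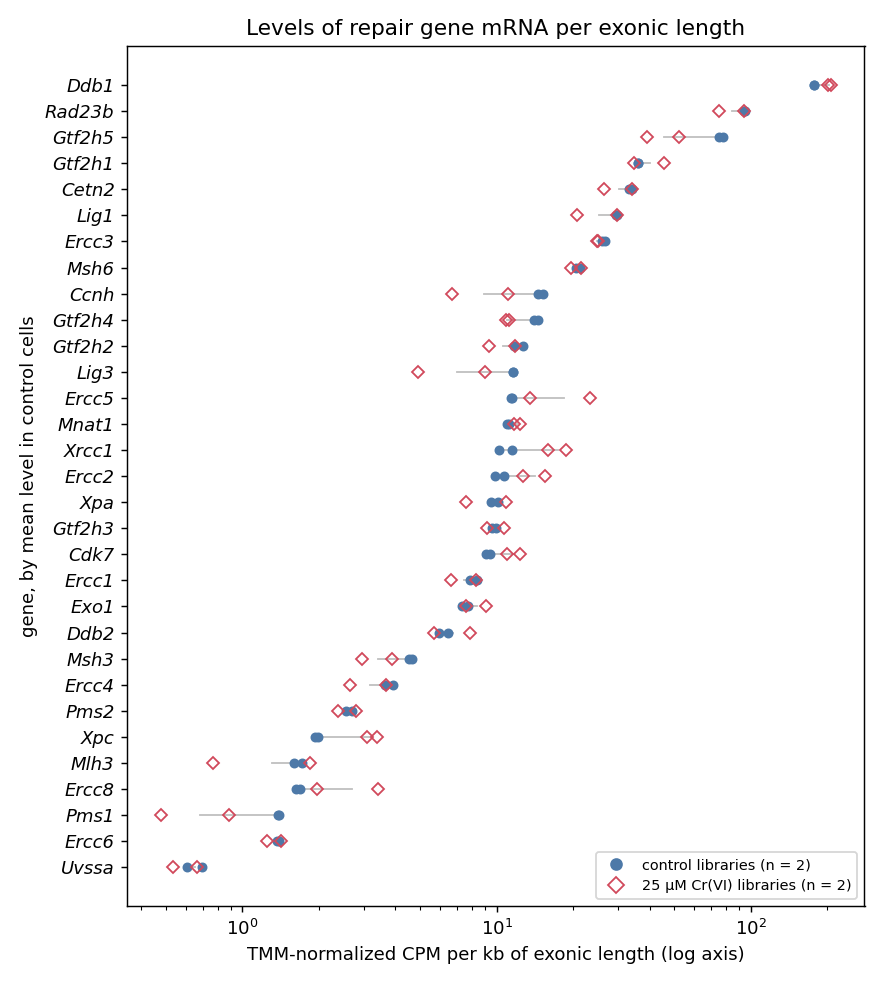
Normalized CPM per kb of exonic length (log axis) of the 31 repair genes, ordered by the control mean, in control libraries (filled circles) and in 25 µM Cr(VI) libraries (open diamonds), n = 2 each. Levels run from 178 for Ddb1 to 0.649 for Uvssa in control cells. The single diamonds farthest from the circles are those of treated library 2 for Pms1, Lig3, Ccnh and Mlh3. For Mlh3 the diamond of treated library 1 lies on the other side of the circles.

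Other genes of the same pathways fill the gap or serve as accessory factors. Of 23 such genes, RPA, RFC, DNA polymerase delta and epsilon subunits and recognition factors among them, edgeR called 0, beside 4.63% of all genes tested, and DESeq2 called 1, beside 15.2%. An unadjusted edgeR p under 0.05 was found for 7, beside 30.7% of all genes, which is close to that share. Their median log2 fold change was -0.013, with a range from -0.69 to 0.53. The gene called by DESeq2 was Rfc5, a clamp loader subunit named here after its values were seen. Rfc5 was at 58.0 and 59.2 CPM in control and at 34.9 and 37.9 CPM in treated cells (log2 fold change -0.69, SE 0.114, edgeR adjusted p = 0.0533).

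Promoter sequences from RefSeq on GRCm38.p6 were matched for 26 of the 31 genes, as 30 windows of 300 bp. Their median GC content was 58.5%, beside 52.7% over all 32851 windows, and they held a median of 22 CpG dinucleotides, beside 7. GGGCGG, the SP1 sequence, occurred on either strand in 70.0% of the windows and in 35.7% of all windows. CCAAT occurred in 46.7%, beside 37.4%, and the ETS sequence CCGGAAG in 20.0%, beside 8.86%. The ETS sequence was found for Cdk7, Ercc1, Gtf2h2, Pms1, Pms2 and Uvssa. The E2F sequences TTTCGCGC and TTTGGCGC were found for Lig1 and Msh3 (6.67% of windows, beside 0.813%), the AP-1 sequences TGACTCA and TGAGTCA for Gtf2h4 (3.33%, beside 5.20%) and the NRF1 sequence for Ercc6 (3.33%, beside 0.971%). None of the searched sequences contains another. The 32851 windows were not limited to genes that passed the filter on low counts, as all 31 repair genes did.

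Gene length did not order the changes of the repair genes. Across the 31 genes, Pearson's r between log10 genomic length and log2 fold change was 0.020 and Spearman's rho was 0.017. Across all tested genes r was -0.157 and rho -0.194. These values are across genes that share the same 4 libraries, and genes are not independent replicates. The longest genes were Mnat1 (161804 bp), Msh3 (143127 bp) and Pms1 (107845 bp), with log2 fold changes of 0.11, -0.43 and -1.01.

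Exons of 10 repair genes overlap those of another gene, and whether counting used the strand of reads is not given in the sources used here. Overlap was measured as the largest single stretch shared by 2 exons, and the total overlap was not computed. Relative to exonic length this stretch was largest in Ddb2, at 23.2% with Acp2, and in Ercc2, at 11.1% with Klc3. Klc3 had a log2 fold change of 0.57, near the 0.46 of Ercc2, and the part of shared reads in either value was not tested. Among the 3 genes called by DESeq2, Xpc shares a stretch of 4.43% of its exonic length with a lncRNA, Gm52912, on the opposite strand.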

How the data were processed

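The authors aligned RNA-seq reads to mm10 with TopHat and deposited counts per Entrez gene without normalization; base calls came from CASAVA 1.8. The counting tool and strand use are not given in the sources used here. The authors aligned FAIRE-seq reads with BWA, called peaks with MACS at default settings in 1 treated library against 1 control library, and deposited a score per peak, 10 times the negative log10 of its p-value. The paper gives an approximate read depth per sample. Peak lists hold no read counts, so the exact depth of each FAIRE library is unknown.

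Of 23403 genes, 13619 passed filterByExpr and were tested with TMM normalization and the edgeR quasi-likelihood test (no block, two-sided, p adjusted by Benjamini and Hochberg's method over all tested genes, threshold 0.05). The TMM factor of treated library 2 was 0.897, and those of the other libraries were 1.03 and 1.04. DESeq2 was an alternative; the study used DESeq. CPM were normalized with the TMM factors, and levels per kb used the union of RefSeq exons. Peaks and genes were placed on RefSeq GRCm38.p6, the mm10 build, and sequences are RefSeq's. The edgeR fit was tested on simulated counts with the same dispersion in both groups. The treated pair in these data differed more than the control pair, which that simulation did not cover.

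The members and lists were chosen with earlier results of these data known. Full values are given for members called in edgeR or DESeq2 and for the highest and lowest fold change of each role group, and further members are given more briefly; other pathway genes are named where called. The same-numbered libraries deviated from their group means with a correlation of 0.0909 over 2 pairs, so the numbers were not taken to pair the samples. Alternatives were a replicate block, library-size scaling alone, upper-quartile scaling, counts without a filter, leaving out each library, other peak distances and a peak score of at least 100. Analyses used Python 3.11.15 (matplotlib 3.10.9, scipy 1.17.1, pandas 2.3.3, numpy 2.4.6) and R 4.3.3 (DESeq2 1.42.0, limma 3.58.1, edgeR 4.0.16).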

Additional observations from a re-analysis of the deposited data

How the results depend on the processing

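Over all genes edgeR called 631. A replicate block, which pairs libraries by number only, called 2969 of the 13619 genes tested. Among them were 6 of the 31 repair genes (2 higher, Ercc5 and Xrcc1, and 4 lower, Ccnh, Gtf2h5, Lig3 and Pms1). It also called 3 of the 23 other pathway genes, and neither share exceeded that over all genes. DESeq2 called 2073 genes (15.2%), 3 of the 31 repair genes (2 higher, 1 lower) and 1 other pathway gene. With no normalization beyond library size 456 genes were called, 1 of them a repair gene, Gtf2h5, lower (edgeR adjusted p = 0.0493). The median of the repair genes was then -0.19 beside -0.11 over all genes. Leaving out each library in turn gave 287 to 10995 called genes, 0 to 19 called repair genes (0 to 9 higher, 0 to 10 lower), 0 to 17 other pathway genes and a median from -0.082 to 0.036. The counts of 19 came from leaving out treated library 1 or treated library 2; the spread is then estimated from the controls alone and the lone treated library is assumed to vary like them. Without control library 1 or 2 no repair gene was called, and 294 and 287 genes were. Leaving out a treated library reversed the log2 fold change of 13 repair genes. Over the fits that leave out a library it ran from -0.36 to 0.018 for Cetn2, -0.11 to 0.34 for Ddb2, -0.29 to 0.040 for Ercc1, -0.082 to 0.13 for Gtf2h3, -0.52 to 0.021 for Lig1 and -0.33 to 0.0080 for Rad23b, which reversed without treated library 1. It ran from -0.14 to 0.043 for Ercc6, -0.053 to 0.34 for Gtf2h1, -1.10 to 0.16 for Mlh3, -0.082 to 0.036 for Msh6, -0.14 to 0.086 for Pms2, -0.27 to 0.034 for Uvssa and -0.37 to 0.14 for Xpa, which reversed without treated library 2. Gtf2h3 also reversed without control library 1 (-0.020), with no normalization (-0.079) and with no filter (-0.0016), and Mnat1 with no normalization (-0.0037). With exonic in place of genomic length r was 0.19. Upper-quartile normalization called 627 genes and no repair or other pathway gene, and the other peak rules left 0 repair genes with a peak at a start. Apart from the alternatives' own construction, the cause was not tested.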
